A study of Caenorhabditis elegans with 4 samples.

Results

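Of the 6862 MRE-11 peaks that the series-level list places on the 6 nuclear chromosomes, 566 (8.25%) lie on the X chromosome, and these are described here. They were chosen by their chromosome alone, without regard to score or width. The series holds 2 MRE-11 ChIP samples and 2 input DNA samples, the sheared chromatin before immunoprecipitation. All 4 came from Caenorhabditis elegans hermaphrodites of the strain fem-2(b245), genotype fem-2(b245)III, labelled as young adults that contain a germline and grown at 20 °C. Every sample carries the fem-2 allele, and no wild-type sample was analysed here. The growth protocol describes batch cultures taken to the gravid stage, which is later than the stage label, and whole animals were ground before crosslinking, so the peaks pool germline and somatic nuclei. For all 4 samples crosslinking was by the agent EGS for 20 min and by EGS with formaldehyde for 10 min. Nothing in the labels says that the replicates came from separate cultures.

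MRE-11 is the nuclease of the complex it forms with RAD-50. The complex trims the ends of DNA double-strand breaks, including those made on purpose in meiosis to start crossovers, and in the worm it also takes part in making the meiotic breaks. The fem-2 gene encodes a phosphatase needed for male fates and for sperm in the sex-determination pathway. The X chromosome stands apart from the autosomes in this animal: in the germline it is largely silent through much of meiosis, the site at which the X homologs pair lies near its left end, and in somatic cells of hermaphrodites a condensin-containing dosage compensation complex is loaded at a limited set of recruitment sites along X and lowers its transcription. Positions of those recruitment sites and of the pairing site were not used here, so no peak was matched to them. Peak positions are on WormBase WS220 and are printed as in the files. Peaks are named by position only, because no genome or gene annotation of that build was used here. The lists hold scores and no read counts, so the depth behind them is unknown.

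The X peaks were split into 2 small classes and a large remainder. A peak was called narrow strong where its score was among the 100 highest of the whole series-level list and its width was under 1500 bp, and broad where it was 1500 bp wide or more. On X 37 peaks were narrow strong (6.54% of the X peaks; 1.37% of the whole list), 22 were broad (3.89%; 3.26% of the whole list) and 507 were neither. Ranked by replicate 2 alone, in place of the series-level scores, 22 X sites were narrow strong. There were 48 broad X peaks with a limit of 1000 bp, and 36 with peaks up to 500 bp apart joined. The 95% exact (Clopper-Pearson) interval was 4.64 to 8.90% for the narrow strong share on X, against 0.905% of the 6296 autosomal peaks (0.686 to 1.17). For broad peaks it was 2.45 to 5.83% on X, against 3.21% on the autosomes (2.79 to 3.67), so those intervals overlap. The intervals cover counting error only. Per Mb of chromosome, X had 2.09 narrow strong sites, where the autosomes ranged from 0.382 (V) to 0.972 (IV). X had 1.24 broad peaks per Mb, the lowest value of the 6 chromosomes, where the autosomes ranged from 1.90 (II) to 3.41 (III). The score that defines the class is the authors' own peak score, and with 1 series-level list no test across samples was made.

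**Figure D1:**
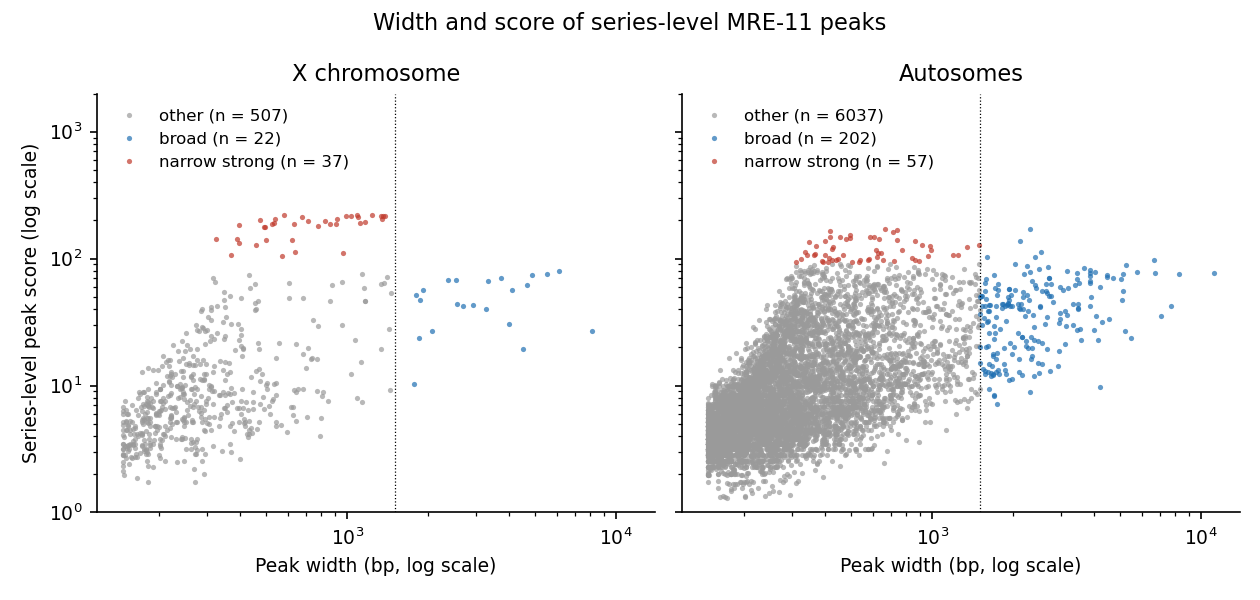
Width in bp and series-level score of each peak, both on log scales, for X (left) and the autosomes (right). Each point is a peak and the dotted line marks 1500 bp. The 37 narrow strong X sites form a separate band at scores of 105.26 and above, while the autosomal points run on without a gap.

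On X a gap in the series-level score, which defines the class, set the narrow strong sites apart. Their replicate scores were not set apart from those of the broad X peaks, as given below. The lowest of them, X:16202004-16202576, scored 105.26, and the next X peak in rank, X:2057775-2063918, scored 79.49 and was broad. Between these scores lay no X peak and 60 autosomal peaks. Within the class a second step separated 27 sites with scores of 177.57 to 219.89 from 10 with scores of 105.26 to 143.05. Between 143.05 and 177.57 lay no X peak and 11 autosomal peaks, and above 177.57 there was no autosomal peak. The 3 lowest narrow strong sites were X:11605468-11606433 at 110.52, X:11924089-11924459 at 106.58 and X:16202004-16202576. Just outside, X:5056133-5057266 and X:289769-295307 followed the broad peak at 79.49 with 76.14 each. All 37 X peaks among the 100 highest scores were under 1500 bp, so the width limit removed none, whereas 6 of the 63 autosomal peaks among the 100 highest were broad.

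The 37 narrow strong sites had a median width of 676 bp, from 325 bp at X:17181150-17181474 to 1376 bp at X:14525298-14526673. Together they covered 28.7 kb, against 76.6 kb for the 22 broad peaks and 165 kb for the other 507. Every one of the 37 was overlapped by a peak in replicate 1 and in replicate 2. The 57 autosomal narrow strong sites were also all matched in both replicates, so matching did not set the X sites apart. Over the whole series-level list 37.7% of peaks overlapped replicate 1, 58.8% replicate 2 and 23.2% both.

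The highest scores were tied. X:806405-806984, a narrow site of 580 bp, scored 219.89 at series level, 2028.89 in replicate 1 and 3100 in replicate 2. X:1626614-1627698 scored 219.89, 2769.32 and 3100 in the same order. X:16055875-16057111 scored 219.89, 2983.68 and 3100. These 3 were thus first in the series-level list, at the 3100 mark in replicate 2 and lower in replicate 1, where they ranked 84, 52 and 48 of 1579. Next came X:2996141-2997474 and X:14525298-14526673, at 218.57 each, and X:4208406-4209760 at 218.03. Those 3 sites were at 3100 in both replicates, as was X:8035887-8036922 with a series-level score of 217.61. X:9465337-9466328, at 216.33, carried the highest replicate 1 score of the class, 3158.79. X:6295833-6296930, at 213.93, and X:7181480-7182155, at 212.20, completed the 10 highest. The last of these was narrow, at 676 bp, and scored 2372.96 in replicate 1 and 3100 in replicate 2. All of the 10 were at 3100 in replicate 2, so that list gives no order among them. Exactly 3100 was the score of 13 X peaks in replicate 1 and of 25 in replicate 2, which makes it a value at which scores pile up.

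In replicate 1 the narrow strong sites of X and of the autosomes differed more than in replicate 2. The replicate 1 peaks over the X sites scored from 576 to 3159 with a median of 2066, and those over the autosomal sites from 57.8 to 966 with a median of 322. Of the 37 X sites 30 lay above the highest autosomal one, and 47 of the 57 autosomal sites lay below the lowest X one. In replicate 2 the X sites scored from 684 to 3100 with a median of 2640. The autosomal sites there scored from 450 to 3206 with a median of 1354. The ranges overlapped almost fully, but only 3 of the 57 autosomal sites lay above the X median. Scores of 3100 or more were held by 17 of the 37 X sites and 2 of the 57 autosomal sites. Over all peaks they were held by 26 of 566 on X and 52 of 6296 on the autosomes, 47 of the latter broad. The pile-up at 3100 thus limits the comparison in replicate 2. Among the 100 highest scores of replicate 1, of 1579, were matches of 24 of the 37 X sites and of 0 of the 57 autosomal sites. Over all peaks 46 of 566 on X and 153 of 6296 on the autosomes had such a match, 69 of the latter broad. Several peaks can share 1 replicate peak. Among the 100 highest of replicate 2, of 4403, were matches of 19 X sites and of 4 autosomal sites. Over all peaks it was 31 on X and 77 on the autosomes. A rank of 100 is a stricter cut in the longer list of replicate 2. The X sites also had higher series-level scores, with a median of 190.7 against 111.1 on the autosomes. A comparison within the score range of the 10 lower X sites, 105.26 to 143.05, was therefore added after the values were seen. There the replicate 1 median was 893 over the 10 X sites (576 to 2640) and 321 over 27 autosomal sites (105 to 966), while in replicate 2 the order was the other way, 1043 over the X sites (684 to 1860) and 1511 over the autosomal sites (818 to 3100). These are descriptions of 2 replicate lists, and no test of the difference was made because peaks of 1 list are not replicates. The sources used here do not say whether the series-level list was made from the same reads as the replicate lists.

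**Figure D2:**
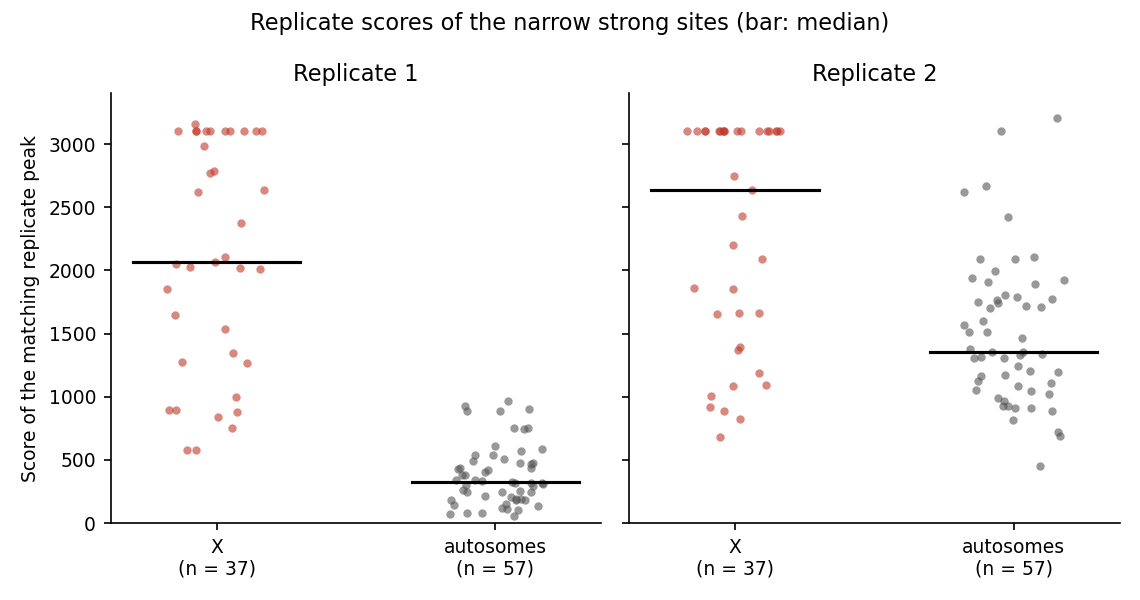
Score of the replicate peak that overlaps each narrow strong site, for replicate 1 (left) and replicate 2 (right), on X and on the autosomes. Each point is a site and the bar is the median: 2066 on X and 322 on the autosomes in replicate 1, 2640 and 1354 in replicate 2.

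The replicates placed most narrow strong sites at nearly the same centres but gave them different widths. The replicate 2 peak was 10 bp wider than the series-level peak in the median (quartiles -90 and 86 bp), and its centre was within 200 bp of the series-level centre at 37 of 37 sites. The replicate 1 peak was wider at 37 of 37 sites, by a median of 784 bp (quartiles 732 and 834 bp), and its centre lay within 200 bp at 32 sites. Directly compared, the replicate 1 peak was wider than the replicate 2 peak at all 37 sites, by a median of 760 bp. Greater width in replicate 1 was not particular to these sites. Its peak was wider at 19 of 19 matched broad X peaks, by a median of 855 bp. The same held at 169 of 169 matched X peaks of neither class, by a median of 1182 bp. No X peak of replicate 1 was narrower than 796 bp. The farthest centre belonged to X:1888336-1888807, a site of 472 bp that lies inside a replicate 1 peak of 6206 bp, X:1883041-1889246. The centres differed by 2428 bp there, and that replicate 1 peak spans 7 series-level peaks. The neighbouring sites X:17544229-17544765 and X:17545326-17545821 shared a single replicate 1 peak of 2422 bp that scored 3100, but had a replicate 2 peak each, at 2430.90 and 1654.86.

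Narrow strong sites were spread over the length of X as single sites and in several close groups. Distances between the centres of neighbours had a median of 380 kb (95% order-statistic interval 186 to 517 kb) and ran from 1.08 kb to 1429 kb. The longest distance lay between X:8035887-8036922 and X:9465337-9466328. The shortest was that between X:17544229-17544765 and X:17545326-17545821, and the next, 3.70 kb, separated X:16202004-16202576 from X:16205671-16206308. Joining neighbours under 100 kb apart gave 28 groups, of which 20 were single sites, 7 were pairs and 1 was a group of 3 sites between X:1322940 and X:1390278. From X:4395382 to X:10668190 the sites were far apart, with 6 successive distances of 855 to 1429 kb. By Mb windows the largest numbers were 6 sites between 1 and 2 Mb and 5 between 11 and 12 Mb. The only full Mb window without one was that from 3 to 4 Mb.

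**Figure D3:**
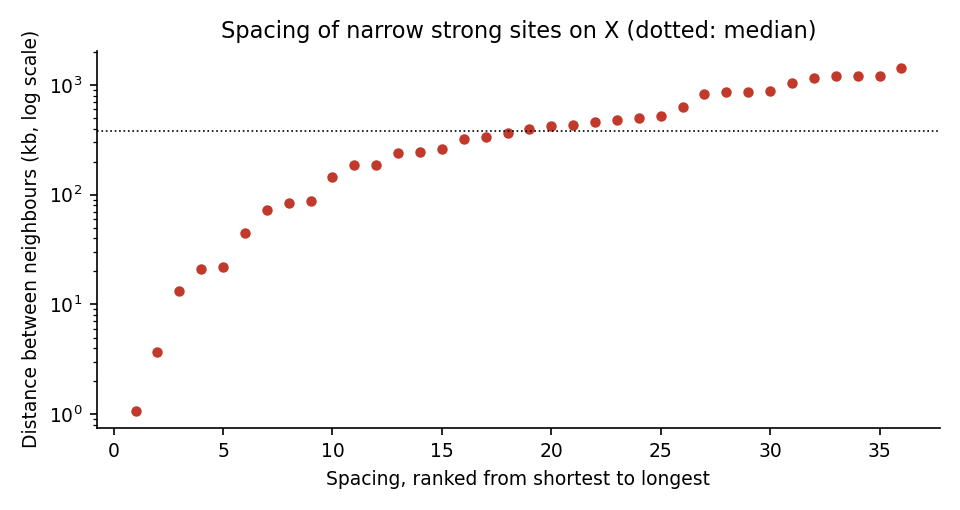
The 36 distances between centres of neighbouring narrow strong sites on X, in kb on a log scale, ranked from shortest to longest. The dotted line is the median of 380 kb, 9 distances lie under 100 kb and 6 lie above 1000 kb.

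Another series-level peak lay within 5 kb of 20 of the 37 X sites (54.1%, interval 36.9 to 70.5), against 47 of the 57 autosomal ones (82.5%, 70.1 to 91.3). The other X peaks had such a neighbour in 47.7% of 507 cases and the other autosomal peaks in 76.0% of 6037. Within 50 kb 36 of 37 narrow strong sites on X (97.3%) and 56 of 57 on the autosomes (98.2%) had a neighbour, with a median of 3 neighbours on X and 8 on the autosomes. Over all scores X had 31.9 peaks per Mb, against 51.0 (V) to 120 (III) on the autosomes.

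At series level the broad peaks scored below the narrow strong sites and mostly above the rest of X. Their quartiles were 33.2 and 67.3, against 4.50 and 12.3 for the X peaks of neither class. In the replicates the 2 classes overlapped widely. Replicate 1 scores were 445 to 3118 over broad X peaks (median 1602) and 576 to 3159 over narrow strong sites (median 2066). In replicate 2 they were 135 to 3100 (median 1943) and 684 to 3100 (median 2640). The widest, X:10361033-10369156, was 8124 bp wide in the series-level list, 8979 bp in replicate 1 and 8296 bp in replicate 2. It scored 26.67, 1116.01 and 287.32 in the same order, with ranks of 1038 of 6862, 155 of 1579 and 1284 of 4403. X:2057775-2063918, X:289769-295307, X:109449-114307 and X:15807459-15811185, with widths from 3727 to 6144 bp, scored 70.81 to 79.49 at series level and 3100 in both replicates. Thus a replicate score of 3100 was shared by these broad peaks and by narrow strong sites whose series-level scores were 178.29 or higher. X:16929339-16933980 (4642 bp) scored 62.03, and X:14384803-14389313 (4511 bp) scored 19.55. X:9184884-9188980 (4097 bp) scored 56.58, with 2768.89 in replicate 1 and 1684.87 in replicate 2. Just inside the width limit were X:15226906-15228675 (1770 bp), X:7077410-7079204 (1795 bp) and X:9007126-9008972 (1847 bp), and just outside it X:11788054-11789502 (1449 bp), X:5914230-5915673 (1444 bp) and X:17309800-17311234 (1435 bp).

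All 22 broad X peaks were matched in replicate 2 and 19 in replicate 1. The 3 without a replicate 1 peak were X:12663404-12667389, X:4025952-4029273 and X:15226906-15228675. The first of them, 3986 bp wide, scored 3100 in replicate 2, where it ranked 7 of 4403, and 30.80 at series level, where it ranked 878 of 6862. The second scored 1808.59 in replicate 2 and 66.73 at series level. Both replicates matched 19 of 22 broad peaks on X (86.4%), against 180 of 202 on the autosomes (89.1%). Broad X peaks had a median width of 3107 bp and a median series-level score of 49.5, and autosomal broad peaks 2250 bp and 39.8. Broad and narrow strong peaks did not lie side by side as a rule: the distance from a broad peak to the nearest narrow strong site had a median of 146 kb, and was under 100 kb for 5 of 22. The closest pair was X:1636061-1638610 and the site X:1626614-1627698, at 10.2 kb.

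The other 507 peaks had a median width of 257 bp and a median score of 6.76. On the autosomes the 6037 such peaks had medians of 274 bp and 7.18. Of the 507, 113 (22.3%) were matched in both replicates, 56 in replicate 1 only, 147 in replicate 2 only and 191 (37.7%) in neither. All X peaks matched in neither replicate belonged to this remainder. They had a median score of 5.14 and a median width of 194 bp. One of them stood out: X:17718281-17718889, the last peak at the right end of X, scored 63.82 and had no partner in either replicate, and the next highest unmatched peak, X:4711965-4712170, scored 17.04. At the left end X:1-352 scored 41.56 and was matched in both replicates, at 558.72 and 664.30.

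Over all 566 X peaks, 225 (39.8%, interval 35.7 to 43.9) overlapped a replicate 1 peak and 319 (56.4%, 52.2 to 60.5) a replicate 2 peak. Both shares were close to those of the whole list given above. Both replicates were hit by 169 X peaks (29.9%, 26.1 to 33.8), against 22.6% of the autosomal peaks (21.6 to 23.7). Neither replicate was hit by 191 (33.7%, 29.9 to 37.8; 26.8% of the whole list), against 26.2% of the autosomal peaks (25.1 to 27.3). A match in 1 replicate alone was found for 206 X peaks (36.4%, 32.4 to 40.5), against 51.2% of the autosomal peaks (49.98 to 52.5). In each of these 3 groups the intervals of X and of the autosomes did not overlap. The 3 groups together make up all peaks, so their differences are not separate results. Among peaks neither narrow strong nor broad, 22.3% on X (18.7 to 26.2) and 19.7% on the autosomes (18.7 to 20.7) were matched in both, with overlapping intervals. For a match in neither the intervals stayed apart, at 37.7% (33.4 to 42.05) and 27.3% (26.1 to 28.4). No test of the differences was made, since neighbouring peaks are not independent.

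Matching followed the score. With the X peaks split into 5 groups of 113 or 114 by score, 21.1% of the lowest group overlapped replicate 1 and 22.8% replicate 2. In the highest group, with scores up to 219.89, it was 90.3% (interval 83.3 to 95.0) and 98.2% (93.8 to 99.8). In replicate 1 the share lay between 21.1 and 33.6% in the 4 lower groups, whereas in replicate 2 it was 27.4% in the second group, 56.6% in the middle one and 77.0% in the next. The autosomal peaks in the same score bands gave 70.1% (67.2 to 72.8) for replicate 1 and 99.4% (98.7 to 99.7) for replicate 2 in the highest band. In the 4 lower bands the autosomal shares for replicate 1 were above those of X, at 23.7, 29.2, 31.8 and 37.6% against 21.1, 26.6, 27.4 and 33.6% on X, with overlapping intervals. For replicate 2 the autosomal shares were 24.9, 34.8, 52.9 and 85.4% against 22.8, 27.4, 56.6 and 77.0% on X, also with overlapping intervals. In each of these 4 bands a larger share of X peaks than of autosomal peaks was matched in neither replicate. The intervals did not overlap in the second band, at 55.8% (46.1 to 65.1) on X and 41.8% (39.0 to 44.6) on the autosomes. The same held in the fourth, at 15.0% (9.0 to 23.0) and 5.8% (4.6 to 7.1). With the narrow strong sites taken out of the highest band, 65 of 76 X peaks (85.5%, 75.6 to 92.5) and 701 of 1025 autosomal peaks (68.4%, 65.4 to 71.2) overlapped replicate 1, so in that band the share on X was higher without them too. The X peaks of that remainder had a median width of 536 bp and the autosomal ones 478 bp. The part of width in the difference was not tested.

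**Figure D4:**
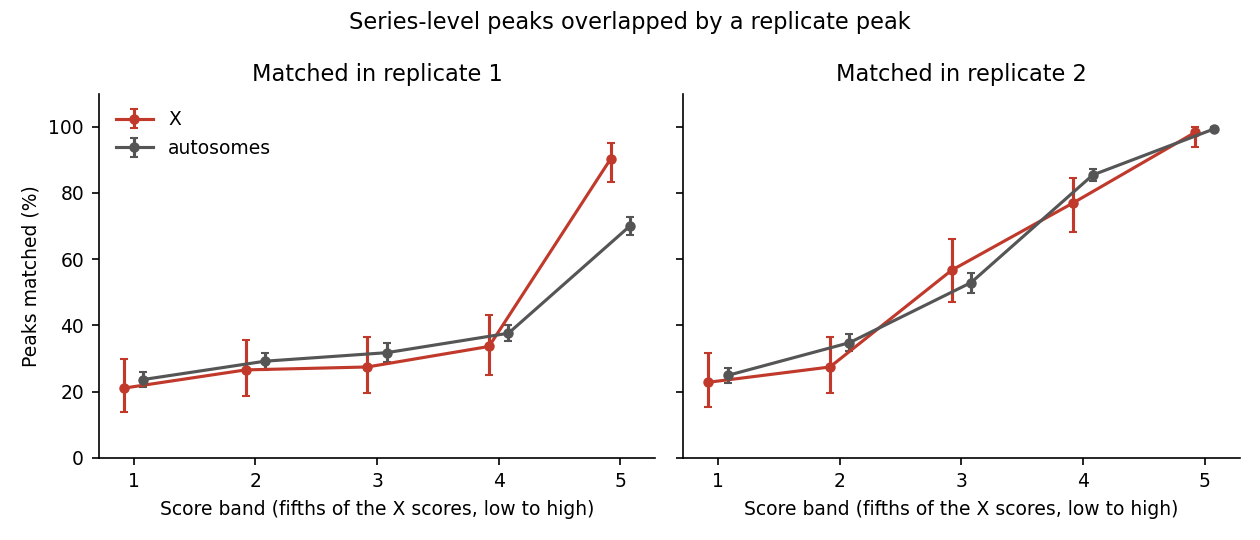
Share of series-level peaks overlapped by a replicate 1 peak (left) or a replicate 2 peak (right), in 5 score bands cut on the X peaks, for X and the autosomes. Bars are 95% exact intervals. In the highest band 90.3% of X peaks and 70.1% of autosomal peaks were matched in replicate 1.

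Across narrow strong X sites the series-level score had a Spearman rho of 0.71 with the replicate 1 score and of 0.83 with the replicate 2 score (n = 37 sites each). At 3100 or more lay 11 of these 37 replicate 1 scores and 17 of the replicate 2 scores, so many ranks are tied. Over the broad X peaks the values were 0.71 with replicate 1 (n = 19) and 0.70 with replicate 2 (n = 22). Over the other X peaks they were 0.16 with replicate 1 (n = 169) and 0.49 with replicate 2 (n = 260). All X peaks gave 0.54 (n = 225) and 0.70 (n = 319), and all autosomal peaks 0.04 (n = 2359) and 0.74 (n = 3714). Score and width, which share the same reads, had a rho of 0.64 over the 566 X peaks. These coefficients are across peaks of the same libraries, and a replicate 1 peak over several series-level peaks enters more than once.

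Seen from the replicates, 156 of the 162 X peaks of replicate 1 (96.3%) and 317 of the 350 of replicate 2 (90.6%) overlapped a series-level X peak. A replicate 1 peak could take in several: 40 of the 162 lay over 2 or more series-level peaks, and X:5045295-5053144, 7850 bp wide, lay over 7. In replicate 2 only 15 of 350 did so. The 6 replicate 1 peaks without a series-level partner scored 50.9 to 147, the highest being X:17507921-17510087. The 33 such replicate 2 peaks had a median score of 65.7, and the highest was X:4052057-4053376 at 144.18.

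Along X the peaks were densest at the left end. Cut into 10 equal segments of 1.77 Mb, X held 117 peaks in the first, 25 in the fourth, 31 in the sixth and 62 in the last. The first Mb alone held 83 peaks (14.7% of the X peaks on 5.64% of its length), where the median of the 17 full Mb windows was 28 and the lowest, from 6 to 7 Mb, was 10. It was also the fullest window of replicate 1, with 28 peaks against a median of 7. In replicate 2 it held 42 peaks against a median of 17, and the next window, from 1 to 2 Mb, held 45. Of the 83 series-level peaks of the first Mb 78 were neither narrow strong nor broad. The longest stretch without any peak centre was 304 kb, to the right of X:6295833-6296930, and the median distance between neighbouring X peaks was 13.6 kb, against 2.35 kb (III) to 5.62 kb (II) on the autosomes. By 3 equal segments, 246 peaks (43.5%) lay in the left, 120 (21.2%, interval 17.9 to 24.8) in the middle and 200 (35.3%) in the right one. The narrow strong sites were placed 13, 9 and 15 and the broad peaks 8, 6 and 8. The 2 end segments, 66.7% of the length, thus held 75.7% of narrow strong sites (58.8 to 88.2), 72.7% of broad peaks (49.8 to 89.3) and 79.3% of the other peaks (75.5 to 82.7), and the intervals of the first 2 include 66.7%. Unmatched peaks lay in the right segment in 41.9% of cases (34.8 to 49.2) and in the left in 32.5% (25.9 to 39.6). Peaks matched in both replicates lay in the right segment in 36.7% (29.4 to 44.4) and in the left in 42.6% (35.0 to 50.4). The intervals of the unmatched and the matched peaks overlapped in both segments.

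**Figure D5:**
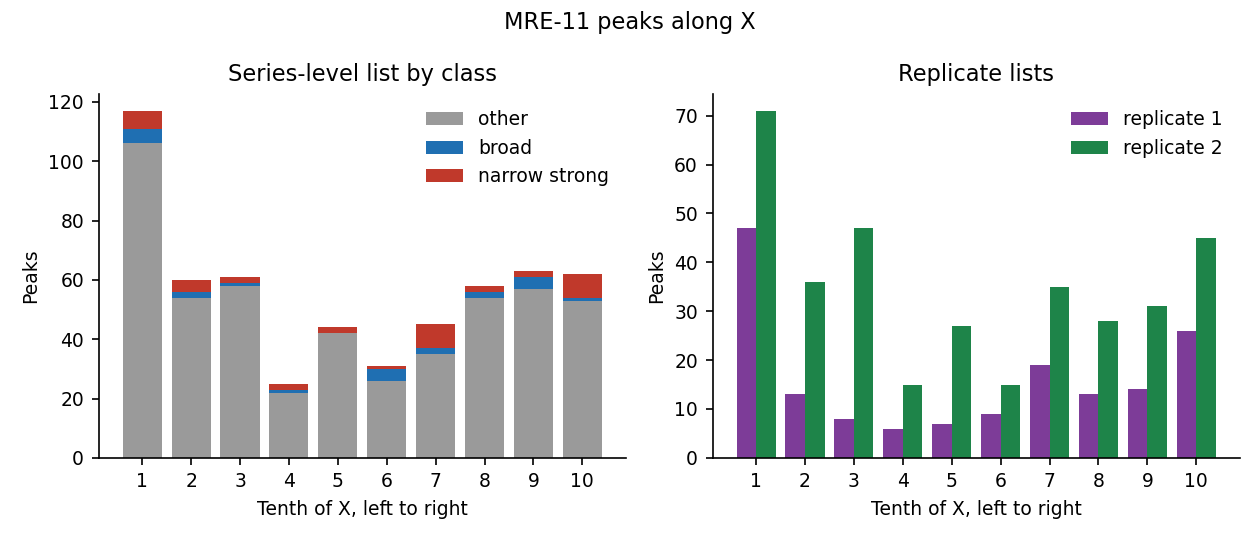
Number of MRE-11 peaks in 10 equal segments of X from left to right. Left, the series-level list stacked by class; right, the 2 replicate lists. The first segment holds more peaks than any other in each list: 117 in the series-level list, 47 in replicate 1 and 71 in replicate 2.

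By number of peaks in 100 kb windows, the replicates differed most in a single stretch of X. In the 100 kb window X:4000001-4100000 replicate 2 had 21 peaks covering 25.5 kb, replicate 1 had 0, and the series-level list had 19 covering 10.2 kb. It was the window of X with the most replicate 2 peaks, and ranked 3 in the series-level list after the first 2 windows of the chromosome, which held 24 each. The broad peak X:4025952-4029273 lies in it, as do 4 of the 5 highest-scoring replicate 2 peaks without a series-level partner. No other 100 kb window held more than 12 series-level peaks outside the first 2 and X:1300001-1400000 (15) and X:7300001-7400000 (14). In the last of these the replicates also differed, with 1 peak in replicate 1 and 10 in replicate 2. The difference in number was the same in X:1800001-1900000, with 3 and 12 peaks, but there replicate 1 covered more, 8.36 kb against 5.77 kb. These windows were picked after their values were seen. Of the 178 windows, replicate 2 had more peaks in 96 and replicate 1 in 9. Over all of X replicate 1 had fewer but wider peaks, 162 covering 327 kb, against 350 covering 243 kb in replicate 2. A larger number of peaks thus need not mean more covered sequence.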

How the data were processed

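MRE-11 ChIP-seq peak lists were analysed for X. Per the submitters' processing notes reads were aligned with BWA to ce10, and per the file headers the authors called peaks with MACS (1 list per ChIP replicate) or MACS v2 (1 series-level list) on WormBase WS220. Scores are those the authors deposited, in a unit that the headers do not name; none lies below 50 in the replicate lists or 1.30 in the series-level list. The sources used here do not give control, thresholds or pooling. The lists hold no read counts, so depth is unknown and no ChIP signal was set against input. Scores of the 2 list types are on different scales and were related across types only by rank or given side by side.

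Start and end were used as deposited. A match is an overlap of 1 bp or more with a peak of a replicate; where several overlap, the highest-scoring gives the replicate values. X length is the largest peak end on X. The 2 mitochondrial peaks were left out of ranks. The members, classes and thresholds were chosen with earlier results of these data known. Named peaks are the 10 highest and 3 lowest narrow strong sites, the 3 just outside each threshold, the 10 widest peaks, the first and last, and the strongest unmatched replicate peaks; others were named after their values were seen. No test was made, since peaks of a list are not replicates of a condition. The overlap, class and spacing code was tested on simulated lists. Python 3.11.15, numpy 2.4.6, scipy 1.17.1, pandas 2.3.3 and matplotlib 3.10.9 were used.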

Additional observations from a re-analysis of the deposited data

How the results depend on the processing

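For 11 results 37 alternative values were computed, of which 23 stayed within the 95% interval of the value or, for counts, within 1.5 times it, and 14 did not. The causes of the changes were not tested, apart from those that the alternative itself sets. In the upper 50% of the list by score, X held 285 peaks, its median width was 354 bp, and 55.8% of its peaks matched replicate 1, 81.1% replicate 2 and 50.2% both. With neighbours up to 500 bp apart joined, X held 8.95% of the list in place of 8.25% and 36 broad peaks in place of 22; by covered bases it held 9.16%. With a limit of 1000 bp there were 48 broad X peaks, and with 2000 bp 17. The share matched in both replicates, 29.9%, necessarily became 39.8 to 56.4% when only 1 replicate was asked for. The number of narrow strong sites was 32 with the 50 highest scores, 40 with the 200 highest and 27 under 1000 bp; ranked by 1 replicate in place of the series-level list it was 22 to 37, and the 37 ranked by replicate 1 hold 24 of the 37 reported sites and 13 other peaks. Those 37 lie under only 29 different replicate 1 peaks, and each of the 13 shares its replicate 1 peak with a narrow strong site (7) or a broad X peak (6). Without the first 1 Mb, an alternative chosen after seeing the data, 75.2% of X peaks lay in the outer segments in place of 78.8%, where those segments make up 64.7% of the remaining length and 66.7% of the whole. The ratio of the X to the autosomal median of the replicate 1 scores of narrow strong sites was 6.42, and 2.78 within the score range of the 10 lower X sites, also chosen after seeing the data. Their spacing stayed within its interval under all 4 alternatives, at 363 to 428 kb. No paired analysis was possible because only ChIP samples have lists here and the inputs with the same numbers were not analysed. Unknown depth limits what an unmatched peak can show.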
